A study of Mus musculus with 5 samples.

Results

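The small proline-rich proteins (Sprr) were described here in the uteri of mice that had received seminal plasma from males of different age. The family was given as 10 genes (Sprr1a, Sprr1b, Sprr2a1, Sprr2a2, Sprr2a3, Sprr2b, Sprr2d, Sprr2e, Sprr2f and Sprr2g), and members were found by their symbol in the deposited count table. Of the 10, 9 had a row among the 28666 genes of the table, and Sprr1b was not analysed here. Of these 9, 5 had enough counts to be among the 17013 genes tested. The genes were chosen by their counts in these same 5 libraries, in which they differed widely between libraries of 1 group, so their levels and fold changes are given as a description and not as a test.

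Whole uteri of ICR females aged 6 to 8 weeks were sequenced, 2 from the aged-SP group (replicates 1 and 4) and 3 from the young-SP group (replicates 1, 2 and 4). All females had been caged in estrus with vasectomized C57BL/6 males, so that they received seminal plasma without sperm and carried no embryo, and the age of the male was what differed between the groups. The labels give the time as 3.5 days after caging, whereas the methods of the study give an earlier time, before embryo transfer. The labels do not say how many females made up a library, and a further young-SP sample that the study set aside was not analysed here. Total counts lay between 15071914 and 16728601 per library, and the 10 pairs of libraries all differed by more than sampling noise (chi-square per degree of freedom from 17.0 to 82.3). In whole tissue, fewer cells of a type and less RNA per cell cannot be told apart.

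Small proline-rich proteins are precursors of the cornified envelope, the insoluble layer that transglutaminases build beneath the membrane of squamous epithelial cells by cross-linking loricrin, involucrin, envoplakin and related proteins. Their middle part is a run of short repeats rich in proline, glutamine or glutamate and cysteine, and the genes lie side by side in the epidermal differentiation complex. In the rodent uterus, which has a simple and not a squamous luminal epithelium, several Sprr2 genes are known to be induced by estrogen and to vary with the estrous cycle and with early pregnancy.

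The coding sequences of the abundant members and of Sprr2a3, which stands for the Sprr2a copies, are shown because the difference between members and the sharing of reads both rest on them. All were read from GRCm38 with the GENCODE M21 annotation, on the plus strand of chromosome 3, each within a single exon, with Sprr2f at chr3:92365896-92366126 (231 bases), Sprr2b at chr3:92317449-92317745 (297 bases), Sprr2d at chr3:92340254-92340511 (258 bases) and Sprr2a3 at chr3:92288588-92288839 (252 bases). Capitals mark each copy of GAGCCNTG, which in these reading frames begins the codons for glutamate, proline and cysteine.
Sprr2f: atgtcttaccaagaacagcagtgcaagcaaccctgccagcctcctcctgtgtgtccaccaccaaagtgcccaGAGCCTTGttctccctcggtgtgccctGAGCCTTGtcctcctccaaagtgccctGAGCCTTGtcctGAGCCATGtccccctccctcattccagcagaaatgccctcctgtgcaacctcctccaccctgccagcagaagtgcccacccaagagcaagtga
Sprr2b: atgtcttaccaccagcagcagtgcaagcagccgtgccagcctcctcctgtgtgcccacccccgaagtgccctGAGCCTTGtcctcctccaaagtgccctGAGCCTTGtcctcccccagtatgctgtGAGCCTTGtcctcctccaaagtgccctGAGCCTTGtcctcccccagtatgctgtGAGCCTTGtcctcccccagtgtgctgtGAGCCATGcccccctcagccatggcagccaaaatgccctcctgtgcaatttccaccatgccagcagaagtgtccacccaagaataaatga
Sprr2d: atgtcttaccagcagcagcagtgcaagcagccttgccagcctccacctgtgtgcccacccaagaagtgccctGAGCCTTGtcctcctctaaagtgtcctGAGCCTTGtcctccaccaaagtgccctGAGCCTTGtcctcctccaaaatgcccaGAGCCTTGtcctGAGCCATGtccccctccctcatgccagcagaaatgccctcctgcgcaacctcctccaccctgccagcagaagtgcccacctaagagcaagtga
Sprr2a3: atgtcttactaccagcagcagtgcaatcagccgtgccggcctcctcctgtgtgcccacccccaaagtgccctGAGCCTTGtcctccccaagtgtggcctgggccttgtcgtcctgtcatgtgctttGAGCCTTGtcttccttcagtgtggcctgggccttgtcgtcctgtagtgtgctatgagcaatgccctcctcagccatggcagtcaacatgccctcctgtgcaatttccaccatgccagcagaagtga

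Sprr2f held 4 of these units, Sprr2b 6, Sprr2d 5 and Sprr2a3 2. Among the members not printed, Sprr2e held 4 and Sprr2g 3, and Sprr1a, whose coding sequence is longer (435 bases), held 11. Sprr2g is annotated as a polymorphic pseudogene. By coding sequence, the nearest members to Sprr2f were Sprr2e (89.6% of aligned columns identical) and Sprr2g (88.7%), followed by Sprr2d (81.0%), whereas Sprr2b was more distant (66.3%).

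The copies of Sprr2a could not be told apart well by reads. The coding sequences of Sprr2a1 and Sprr2a2 were identical (100%) and that of Sprr2a3 matched them in 98.8% of columns, and the annotated transcripts of Sprr2a1 and Sprr2a2 overlap on the same strand. Of the 50-base stretches of its transcripts, 96.3% of those of Sprr2a1 and 96.5% of those of Sprr2a2 also occurred in other genes, against 61.1% for Sprr2a3. The sharing was lower for Sprr2b (14.1%), Sprr2e (10.2%), Sprr2d (4.27%) and Sprr2f (0.714%), and it was 0% for Sprr2g and Sprr1a. How reads with several matches were counted is not given in the sources used here, so the values of the Sprr2a rows are uncertain in a way that those of Sprr2f, Sprr2g and Sprr1a are not.

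Levels of different members were compared per length, as FPKM (counts scaled to gene length and to the total of the library). Over the 5 libraries Sprr2f had the highest mean level at 282 FPKM, followed by Sprr2b at 73.3 FPKM, Sprr2g at 15.2 FPKM and Sprr2d at 4.17 FPKM. Sprr2a3 followed at 1.56 FPKM, Sprr1a at 0.874 FPKM, Sprr2e at 0.191 FPKM, Sprr2a1 at 0.0549 FPKM and Sprr2a2 at 0.00427 FPKM. Sprr2f was the highest member in 5 of 5 libraries. The place of Sprr2b above Sprr2g held in 3 of 5 libraries, and the place of Sprr2d above Sprr2a3 in 1 of 5, so neither of these neighbours was separated beyond the spread between libraries.

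Sprr2f was counted 1066 times in aged-SP replicate 1 and 3450 times in aged-SP replicate 4. In young-SP replicates 1, 2 and 4 it was counted 7249, 571 and 1386 times. As CPM (counts scaled to a common library total, with edgeR's TMM factors) these were 64.4 and 221 in the aged-SP group and 453, 33.8 and 92.5 in the young-SP group. The highest and the lowest library thus both belonged to the young-SP group, and both aged-SP libraries lay between them. Young-SP replicate 1 exceeded the other young-SP libraries 13.4-fold (replicate 2) and 4.90-fold (replicate 4). The mean level of Sprr2f was 143 ± 110 CPM (SD, n = 2) with aged seminal plasma and 193 ± 227 CPM (SD, n = 3) with young.

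Sprr2b had the most extreme distribution of any member. It was counted 676 and 412 times in aged-SP replicates 1 and 4 and 3552 times in young-SP replicate 1, but 0 times in young-SP replicates 2 and 4. These counts corresponded to 40.9 and 26.4 CPM in the aged-SP libraries and to 222 CPM in young-SP replicate 1. No library lay between 0 and 412 counts. With a floor of 3 counts in a library, young-SP replicate 1 was at least 1253-fold higher than young-SP replicate 2 and at least 1109-fold higher than young-SP replicate 4. The aged-SP library with the lower level, replicate 4, was at least 149-fold and at least 132-fold higher than the same libraries. In young-SP replicates 2 and 4, in which Sprr2b was at 0, Sprr2f was still counted 571 and 1386 times, so that the family was not silent there.

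Sprr2g, the row annotated as a polymorphic pseudogene, was counted 139 and 137 times in aged-SP replicates 1 and 4. It was counted 409, 32 and 76 times in young-SP replicates 1, 2 and 4. The aged-SP libraries were nearly equal (8.40 and 8.76 CPM), whereas young-SP replicate 1 (25.6 CPM) exceeded young-SP replicate 2 (1.89 CPM) 13.5-fold and young-SP replicate 4 (5.07 CPM) 5.04-fold. These folds within the young-SP group were close to those of Sprr2f.

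Of the Sprr2a copies, most counts were assigned to Sprr2a3. It was counted 19 and 149 times in aged-SP replicates 1 and 4 and 151, 5 and 32 times in young-SP replicates 1, 2 and 4. Here aged-SP replicate 4 (9.53 CPM) and young-SP replicate 1 (9.44 CPM) were equally high, and aged-SP replicate 1 (1.15 CPM) lay below young-SP replicate 4 (2.14 CPM). The aged-SP libraries differed 8.30-fold for Sprr2a3, against 3.42-fold for Sprr2f and 1.04-fold for Sprr2g. Sprr2a1 had 13 counts in all, 8 of them in aged-SP replicate 4, and Sprr2a2 had 1 count.

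Sprr2d was read almost only in 1 library. Young-SP replicate 1 held 224 of its 229 counts, while aged-SP replicates 1 and 4 held 1 and 3, and young-SP replicates 2 and 4 held 1 and 0. The level in young-SP replicate 1 was 14.0 CPM, and every other library was at or under the floor of 3 counts. Sprr2e had 10 counts in all, 7 of them in young-SP replicate 1. At this depth no difference in Sprr2e, Sprr2a1 or Sprr2a2 between groups was detectable.

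Sprr1a, the member with the longest run of repeats, was the one in which the aged-SP libraries and young-SP replicate 1 were alike. It was counted 21 and 16 times in aged-SP replicates 1 and 4, 19 times in young-SP replicate 1, 0 times in young-SP replicate 2 and 1 time in young-SP replicate 4. With aged seminal plasma the mean of Sprr1a was 1.15 ± 0.174 CPM (SD, n = 2), and with young it was 0.418 ± 0.668 CPM (SD, n = 3). Of the Sprr genes outside the list of members, Sprr2i had 2 counts, both in young-SP replicate 1, and the pseudogene Sprr2c-ps had 2 counts in different libraries.

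**Figure D1:**
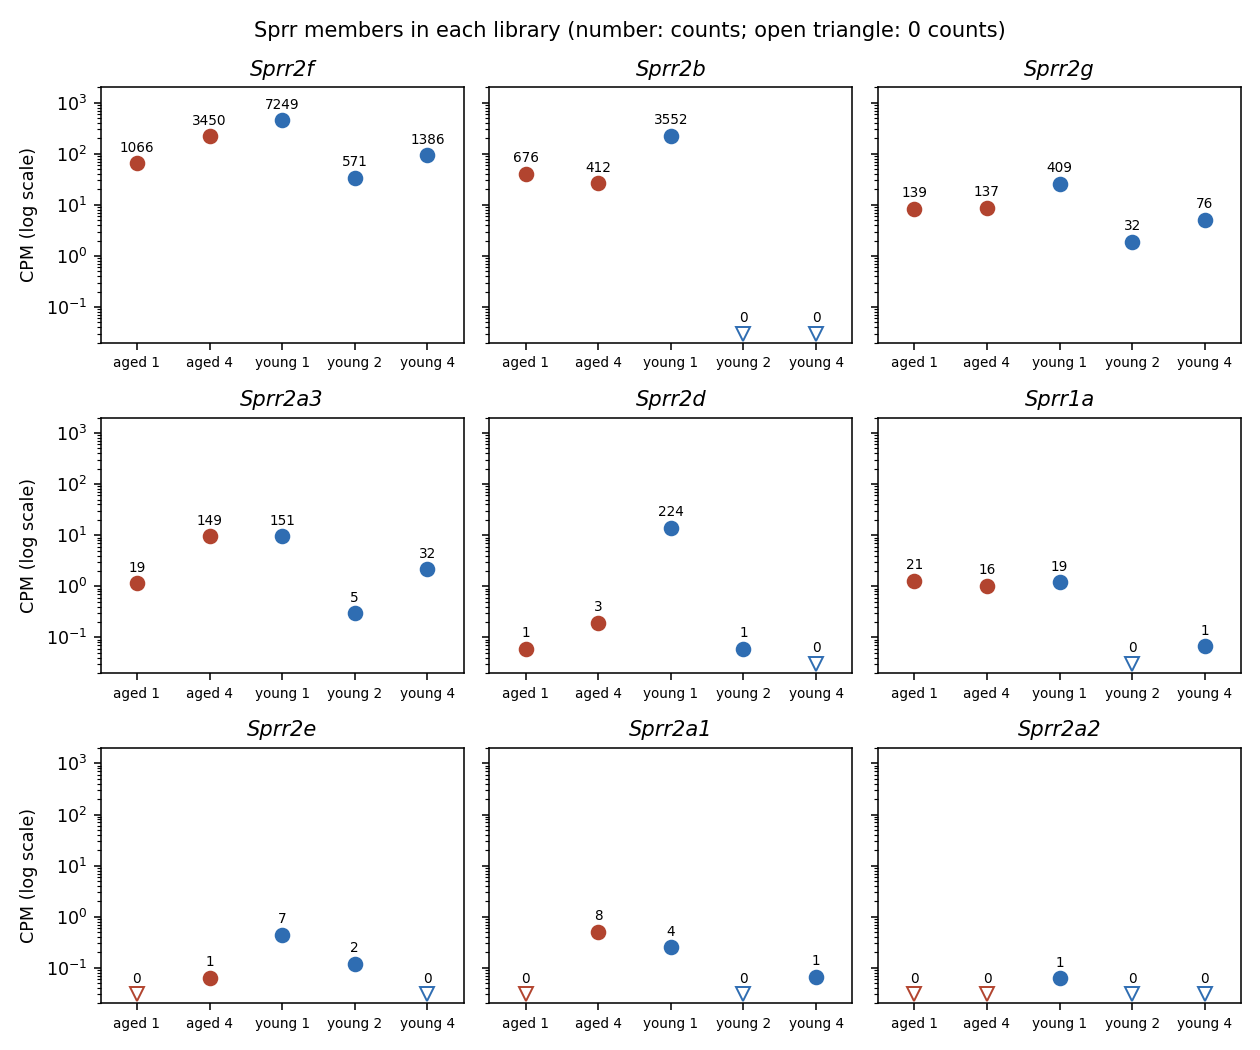
CPM (log axis) of the 9 members in each library, red for aged-SP and blue for young-SP, with the counts written above each point and open triangles for 0 counts. Young-SP replicate 1 was the highest library for Sprr2f, Sprr2b, Sprr2g and Sprr2d, and Sprr2b was at 0 in young-SP replicates 2 and 4.

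The difference between young-SP replicate 1 and the other young-SP libraries was shared by all tested members. In 5 of the 5 tested members its CPM was over 4-fold that of young-SP replicate 2 and of young-SP replicate 4, as it was in 240 of all 17013 tested genes (1.41%). At a limit of 2-fold these were again 5 of 5 members, and 760 genes (4.47%). Both limits were set with the values known, and the members were themselves chosen by their counts in these libraries. Sprr2b and Sprr1a also passed the filter on low counts through the libraries in which they are high. Nothing is therefore read from the contrast between these shares.

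By the rule of the comparison (an absolute log2 fold change over 1 and, by edgeR's quasi-likelihood F-test, a p adjusted by Benjamini-Hochberg over all tested genes under 0.05), 0 of 5 members were called, where 0.147% of all tested genes were. None of the 5 had an unadjusted p under 0.05. Of all 17013 tested genes 3228 had one, which is the background for the gene lists below. The log2 fold change of aged-SP over young-SP was -0.44 (SE 1.13) for Sprr2f, -1.14 (SE 2.41) for Sprr2b and -0.34 (SE 1.02) for Sprr2g. It was 0.43 (SE 1.35) for Sprr2a3 and 1.44 (SE 1.26) for Sprr1a, and the adjusted p lay between 0.571 (Sprr1a) and 0.891 (Sprr2a3). DESeq2's Wald test called 0 members at the same thresholds, with 3.6% of the genes it tested called, and limma-voom called 0. DESeq2 returned no p for Sprr2b because its rule for outlying counts applied, and it also gave a value for Sprr2d (log2 fold change -5.22, DESeq2 adjusted p = 0.382), which rested on the counts of young-SP replicate 1. The CPM of the groups overlapped for each of the 5 tested members, and the groups were apart in 38.8% of all tested genes. The members were chosen by counts that differed widely within 1 group, which favours overlap, so nothing is read from this contrast.

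These fold changes depended on young-SP replicate 1. Without it, the log2 fold change was 1.16 (SE 0.71) for Sprr2f and 1.29 (SE 0.47) for Sprr2g, both turned from lower to higher, and 2.13 (SE 1.22) for Sprr2a3. Sprr1a and Sprr2b passed the thresholds, with adjusted p values from edgeR of 0.0462 and 0.0134, where 3.45% of all genes tested without that library were called. Both had passed the filter on low counts through the libraries in which they are high, so nothing is read from this count. The groups were then apart for Sprr2b, Sprr2g and Sprr1a among the 5, against 55.7% of all genes tested without that library. The fitted fold changes of Sprr2b and Sprr1a were then set by young-SP libraries at 0 counts, or at 0 and 1, so that no size is given for Sprr1a and only the bounds above describe that of Sprr2b.

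**Figure D2:**
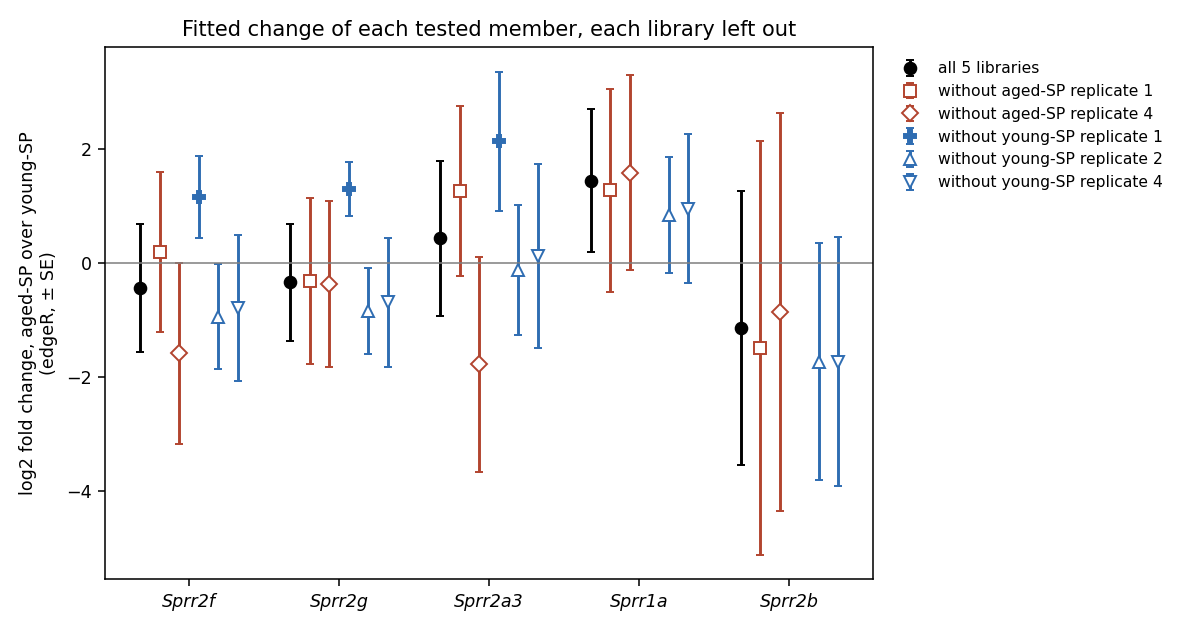
Fitted log2 fold change of aged-SP over young-SP with its SE (edgeR) for the 5 tested members, with all libraries (black) and with each library left out. Without young-SP replicate 1 (filled blue) the values of Sprr2f and Sprr2g lay above 0, whereas with all libraries they lay below; the values of Sprr2b and Sprr1a without that library are not drawn because they are set by counts of 0 or 1.

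Summed over all Sprr2 rows, the family took 1901 and 4161 counts in aged-SP replicates 1 and 4. In young-SP replicates 1, 2 and 4 it took 11599, 611 and 1496 counts. As CPM the sum averaged 191 ± 107 (SD, n = 2) with aged and 287 ± 381 (SD, n = 3) with young seminal plasma, and the ratio of aged to young was 0.663. Without young-SP replicate 1 the young-SP mean was 68.0 CPM and the ratio 2.80, so that 1 library decided the direction. Sprr2 genes took at most 0.0720% of all counts of a library.

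The makeup of the Sprr2 counts also differed between libraries. Of the counts of Sprr2b and Sprr2f together, Sprr2b took 38.8% in aged-SP replicate 1 (95% Clopper-Pearson interval 36.5 to 41.1%), 10.7% in aged-SP replicate 4 (9.71 to 11.7%) and 32.9% in young-SP replicate 1 (32.0 to 33.8%). It took 0 of 571 counts in young-SP replicate 2, where the floor of 3 counts is a share of 0.525% and the interval reached 0.644%. In young-SP replicate 4 it took 0 of 1386, where the floor is 0.216% and the interval reached 0.266%. The shares of all libraries with Sprr2b thus lay far above what the others allow, and aged-SP replicates 1 and 4 differed from each other beyond their intervals. The intervals and limits cover counting error only, since the files give no molecular identifiers. Sprr2g was then set against Sprr2f. There were 5.64, 5.60 and 5.48 counts of Sprr2g per 100 counts of Sprr2f in young-SP replicates 1, 2 and 4, and 13.04 and 3.97 in aged-SP replicates 1 and 4. Within the young-SP group this ratio was therefore nearly constant while Sprr2f itself varied over 13.4-fold. Sprr2a3 took between 0.876 and 4.32 counts per 100 of Sprr2f, with the highest value in aged-SP replicate 4. Sprr2d took 3.09 per 100 in young-SP replicate 1 and at most 0.175 in every other library.

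**Figure D3:**
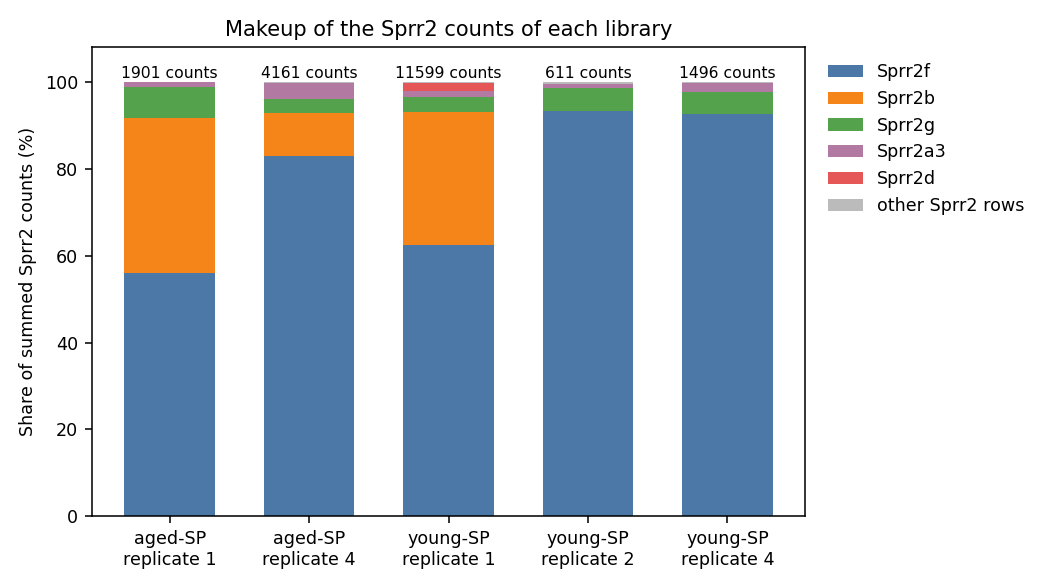
Share of each gene in the summed Sprr2 counts of a library (stacked bars, percent), with the summed counts above each bar. Sprr2b took 35.6% in aged-SP replicate 1, 9.90% in aged-SP replicate 4 and 30.6% in young-SP replicate 1, and 0% in the other 2 libraries, where Sprr2f took 93.5% and 92.6%.

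The 11 Sprr rows of the table lie within 270 kb of chromosome 3 (chr3:92215799-92485895 on GRCm38), 10 of them on the plus strand and Sprr1a on the minus strand at its end. The highest level, that of Sprr2f, lay 149 kb from the start of Sprr2a1, and its neighbours on either side had very different levels: Sprr2e, 136 kb from that start, had 10 counts in all, and Sprr2g, at 158 kb, had 793. Sprr2b and Sprr2f, the most abundant members, were thus separated by Sprr2d and Sprr2e, which were close to 0 in 4 of 5 libraries. Of 4 other genes of the table within these limits, only the protein-coding Gm9774 reached a mean of 10 counts. Gm9774 was counted 42 and 32 times in aged-SP replicates 1 and 4 and 46, 53 and 42 times in young-SP replicates 1, 2 and 4, so that it was even across libraries in which the Sprr2 sum varied over 20.1-fold.

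**Figure D4:**
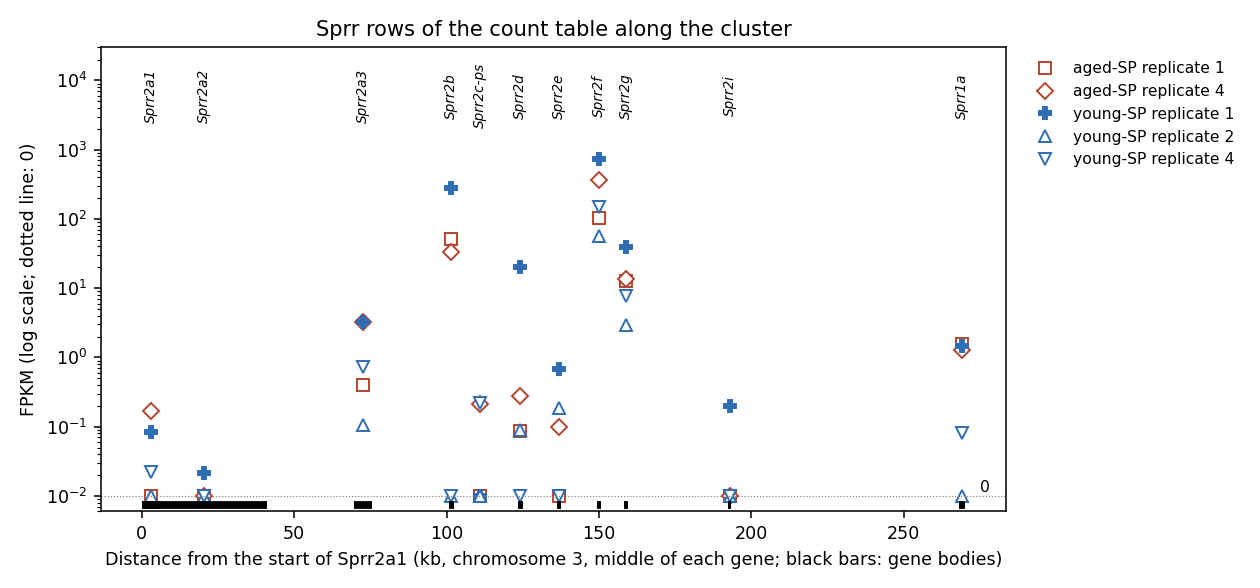
FPKM (log axis, dotted line for 0) of the 11 Sprr rows in each library against the distance from the start of Sprr2a1 (kb), with gene bodies as black bars. Sprr2f at 149 kb was the highest in every library, and young-SP replicate 1 (filled) was the highest library at Sprr2b, Sprr2d, Sprr2e, Sprr2f and Sprr2g.

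Promoter sequence was searched for motifs that bear on estrogen and on the squamous programme, in the 250 bases before the RefSeq start (GRCm38.p6) and on both strands. Of 14 Sprr promoters in the RefSeq table, 9 belonged to rows of the count table, and Sprr2g had none. The AP-1 motif TGANTCA occurred in 9 of the 14, 6 of them in the count table (Sprr2b, Sprr2d, Sprr2e, Sprr2f, Sprr2i and Sprr1a), against 6.73% of all 32536 promoters. In Sprr2b, Sprr2d, Sprr2e, Sprr2f and Sprr2i its first base lay 193 to 197 bases before the start. The stretch from 230 to 151 bases before the start is shown for the members that hold the motif there, on the plus strand, with the motif in capitals. In Sprr2f a second run of capitals marks the estrogen receptor site AGGTCA, a single arm of the palindrome described below, read on the opposite strand, 219 bases before the start. The stretches are chr3:92364957-92365036 for Sprr2f, chr3:92316475-92316554 for Sprr2b, chr3:92338910-92338989 for Sprr2d and chr3:92351913-92351992 for Sprr2e.
Sprr2f: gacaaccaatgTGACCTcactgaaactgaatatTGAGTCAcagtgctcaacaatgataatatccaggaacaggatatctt
Sprr2b: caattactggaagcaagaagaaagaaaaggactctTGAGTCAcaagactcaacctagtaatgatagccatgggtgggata
Sprr2d: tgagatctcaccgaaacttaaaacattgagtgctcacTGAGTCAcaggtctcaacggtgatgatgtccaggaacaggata
Sprr2e: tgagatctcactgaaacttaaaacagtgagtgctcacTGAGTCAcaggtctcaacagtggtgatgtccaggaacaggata

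The motif was thus present in members of very different level, among them Sprr2f and Sprr2e, and it was not found in the windows of Sprr2a1, Sprr2a2 and Sprr2a3. Over the whole 250 bases, Sprr2d and Sprr2e were 88.9% identical, whereas Sprr2f matched Sprr2d in 70.0% and Sprr2b in 60.4% of aligned columns. The palindromic estrogen response element GGTCANNNTGACC occurred in 0 of the 14 promoters and in 0.0645% of all promoters. The single arm AGGTCA, which can overlap that palindrome, occurred in 1 of 14 and in 14.0% of all promoters, and the Ets core GGAA in 14 of 14 and in 93.4% of all. A match of letters is a description of the sequence, and the windows say nothing of elements elsewhere. The starts of Sprr2a1, Sprr2a2, Sprr2a3, Sprr2b and Sprr1a differ between RefSeq and GENCODE, and the windows, also those of the Sprr2a genes without the AP-1 motif, are set by RefSeq.

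Other genes that estrogen induces in the uterus were then set beside the Sprr2 genes. Ltf, which encodes lactoferrin, was counted 44802 and 67701 times in aged-SP replicates 1 and 4 and 58064, 478 and 5906 times in young-SP replicates 1, 2 and 4. Lcn2, which encodes the iron-siderophore carrier lipocalin 2, was counted 27669 and 16972 times in the aged-SP libraries and 26126, 39 and 60 times in the young-SP libraries. Complement C3 was counted 81789, 47192, 28128, 5873 and 9454 times in the same order. For each of these genes young-SP replicate 1 exceeded the other young-SP libraries, as it did for Sprr2f, but for Ltf it lay between the aged-SP libraries, for Lcn2 close to the higher of them and for C3 below both. The cell surface mucin Muc1 was counted 2370, 1318, 2204, 271 and 453 times. Greb1, a cofactor of the estrogen receptor, was counted 677, 942, 280, 250 and 159 times, and there young-SP replicate 1 did not stand apart in this way. Of the receptors, Esr1 was counted between 4964 and 6928 times, Pgr between 3183 and 4604 times and Esr2 at most 3 times per library. The membrane receptor Gper1 was counted 55 and 66 times in the aged-SP libraries and 53, 124 and 139 times in the young-SP libraries. The growth factor Igf1, also induced by estrogen, was counted 6438, 5583, 9824, 15990 and 9543 times with aged-SP replicates 1 and 4 first, lower in both aged-SP libraries. Of the 9 tested genes of this list (the receptors and genes induced by estrogen), 0 were called by edgeR. DESeq2 called 1 and gave no adjusted p for Lcn2. By edgeR, 4 of the 9 had an unadjusted p under 0.05, where 3228 of all 17013 tested genes had one. The median log2 fold change of the 9 was 0.89, against 0.0072 over all tested genes. Without young-SP replicate 1, 4 of the 9 were called, all higher in the aged-SP group.

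Genes induced by progesterone were set beside the Sprr2 genes in the same way, and they did not share a single order of libraries. Calb1, a calcium-binding protein, was counted 1688 and 942 times in aged-SP replicates 1 and 4 and 8311, 6743 and 8363 times in young-SP replicates 1, 2 and 4. Lrp2, an endocytic receptor, was counted 410 and 270 times in the aged-SP libraries and 2818, 6123 and 8296 times in the young-SP libraries. Young-SP replicate 1 thus lay with the other young-SP libraries for Calb1 and on their side for Lrp2, unlike its place for the Sprr2 genes. The epithelial signal Ihh was counted 132, 180, 332, 767 and 518 times, and the growth factor Areg 1, 0, 3, 28 and 46 times. Prap1, a secreted protein rich in proline, was counted 46148, 7719, 2416, 3 and 33 times, so that young-SP replicate 1 stood far above the other young-SP libraries. Il13ra2, a receptor of interleukin 13, was also highest in young-SP replicate 1 (236, 83, 1081, 431 and 598 counts). Of the 11 tested genes of this list, 0 were called by edgeR, 10 had an unadjusted p under 0.05, and the smallest adjusted p was 0.0598. DESeq2 called 5 and gave no adjusted p for Prap1. The median log2 fold change was -0.77. Without young-SP replicate 1, edgeR called 1 higher and 4 lower.

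**Figure D5:**
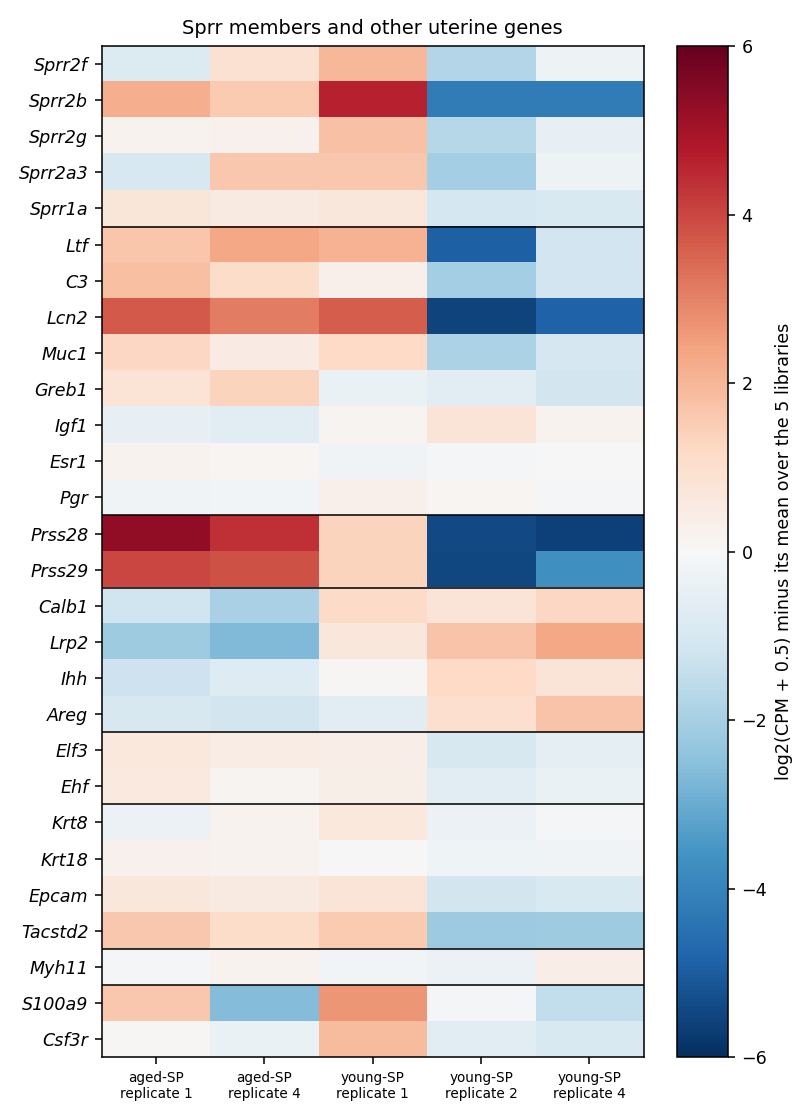
Level of 28 genes in each library, as log2(CPM + 0.5) minus its mean over the 5 libraries (colour). Blocks are Sprr members, estrogen genes and receptors, gland proteases, progesterone genes, epithelial regulators, luminal epithelium, myometrium and neutrophils, each with only part of its list. Among the genes not drawn, Prap1 was higher in both aged-SP libraries, and Retnlg and Mpo were lowest in young-SP replicate 1. Young-SP replicate 1 was above the other young-SP libraries for the Sprr members, Ltf, Lcn2 and Muc1.

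The partners of Sprr proteins in the cornified envelope were then described. Involucrin (Ivl) had at most 3 counts in a library, filaggrin (Flg) at most 3, and loricrin (Lor) between 36 and 77. Tgm1, the transglutaminase of keratinocytes, was counted 62 and 36 times in aged-SP replicates 1 and 4 and 42, 14 and 21 times in young-SP replicates 1, 2 and 4. The young-SP libraries thus stood in the same order for Tgm1 as for Sprr2f. The desmosomal linker desmoplakin (Dsp) was counted 1516, 1578, 1755, 1054 and 886 times, highest in young-SP replicate 1, and envoplakin (Evpl) between 176 and 263 times. Periplakin (Ppl) was instead lowest in young-SP replicate 1 (882, 640, 603, 925 and 889 counts). The S100 protein S100a10 was counted 3655 and 3115 times in the aged-SP group and 5684, 5892 and 5345 times in the young-SP group, and its relative S100a11 2503, 1952, 1581, 1461 and 1405 times. Of the 12 of these genes in the table, 8 were tested, 0 were called by edgeR, 3 had an unadjusted p under 0.05, and DESeq2 called 0. The median log2 fold change was 0.41. Without young-SP replicate 1, 0 were called.

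Of 11 tested transcription factors that act on squamous or epithelial genes, 0 were called by edgeR, 2 had an unadjusted p under 0.05, and DESeq2 called 1. Elf3, an epithelial Ets factor, was counted 1058 and 883 times in aged-SP replicates 1 and 4 and 877, 355 and 424 times in young-SP replicates 1, 2 and 4. Its relative Ehf was counted 2654, 1894, 2234, 1137 and 1224 times, in the same order of the young-SP libraries. The AP-1 subunit Fosl2 was counted 4567, 2572, 1839, 1650 and 1389 times and Jun 2684, 3083, 1590, 1628 and 2395 times. Junb, another subunit, was counted 1485, 696, 882, 548 and 589 times. Zfp750, a regulator of epidermal differentiation, was counted 10, 11, 28, 6 and 4 times, and so was highest in young-SP replicate 1, at few counts. Klf4 was instead lowest in young-SP replicate 1 (1019, 530, 376, 566 and 442 counts). The median log2 fold change of the list was 0.60, and without young-SP replicate 1 edgeR called 1 of its genes, Elf3, as higher.

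Markers of cell types were used to see what else moved with the Sprr2 genes. Markers of the squamous epithelium of the vagina, ectocervix or skin were mixed. The keratins that define it were near 0, as Krt5, Krt14, Krt13, Krt4 and Krt6a had between 0 and 9 counts in every library, including young-SP replicate 1. Others were counted more often, Krt10 between 49 and 224 times and Sbsn between 72 and 148 times. Ly6d was counted 61, 33, 19, 1 and 4 times and Dsg3 63, 7, 36, 7 and 12 times, so that for both young-SP replicate 1 exceeded the other young-SP libraries. The summed CPM of the 15 genes of that list was 18.4 to 20.4 in the aged-SP group and 12.9 to 26.03 in the young-SP group, with 19.3 in young-SP replicate 1. Of its 5 tested genes, 0 were called by edgeR, 3 had an unadjusted p under 0.05, and DESeq2 called 1. Without young-SP replicate 1, edgeR called Ly6d as higher. Luminal epithelium (10 genes, among them Krt8, Krt18, Epcam and Cdh1) summed to 1321 and 1474 CPM in aged-SP replicates 1 and 4 and to 1793, 962 and 1167 CPM in young-SP replicates 1, 2 and 4, so that it was also highest in young-SP replicate 1, by less than 2-fold over any other library. Of the 10, 0 were called by edgeR, 2 had an unadjusted p under 0.05, and DESeq2 called 1. Without young-SP replicate 1, edgeR called 2 of them as higher and 1 as lower. Neutrophil genes (11 in the table) summed to 113 and 32.4 CPM in the aged-SP group and to 254, 58.6 and 38.7 CPM in the young-SP group. S100a9 was counted 829 and 34 times in aged-SP replicates 1 and 4. In young-SP replicates 1, 2 and 4 it was counted 1628, 246 and 80 times. Elane and Camp had at most 3 counts in a library, and Ngp was counted 19, 1, 15, 3 and 2 times in the same order. In 7 of the 9 tested neutrophil genes young-SP replicate 1 was over 2-fold both other young-SP libraries, as in 4.47% of all tested genes. Among the 7, Ly6g, Ngp and Mmp8 had at most 3 counts in young-SP replicates 2 and 4, and an aged-SP library was highest for each. Retnlg (250, 140, 138, 312 and 229 counts) and Mpo (51, 40, 27, 47 and 46 counts) were instead lowest in young-SP replicate 1. Of the 9 tested neutrophil genes, 0 were called by edgeR, 0 had an unadjusted p under 0.05, and DESeq2 called 0. The part of squamous cells, luminal epithelium and neutrophils in the Sprr2 levels was not tested.

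Genes of the uterine glands spanned a wide range of counts. Prss28, an implantation serine protease, was counted 23923 and 11943 times in aged-SP replicates 1 and 4 and 1450, 6 and 4 times in young-SP replicates 1, 2 and 4. Its neighbour Prss29 was counted 40664, 33412, 6156, 50 and 173 times, whereas Foxa2, the transcription factor that defines the glands, lay between 136 and 239 counts. Cxcl15, a chemokine of the glands, was lower in both aged-SP libraries (48, 30, 139, 341 and 122 counts). Spink1, a protease inhibitor, was counted 2536, 191, 177, 183 and 116 times and Lif, the cytokine of implantation, 106, 41, 58, 38 and 36 times. Of the 6 tested gland genes, 0 were called by edgeR, 2 had an unadjusted p under 0.05, and DESeq2 called 1, Cxcl15. For stroma (5 tested) these were 0, 3 and 0, for myometrium (5 tested) 0, 0 and 0, and for ovary and oviduct (6 tested) 0, 1 and 1. DESeq2 gave no adjusted p for Prss28 and Prss29. Without young-SP replicate 1, edgeR called Prss28 and Prss29 as higher in the aged-SP group. Stroma genes summed to between 1533 and 2592 CPM and myometrium genes to between 8493 and 13520 CPM per library, and neither sum was highest in young-SP replicate 1.

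Presence or absence as in Sprr2b was then sought among all genes. Of all 28666 genes, 5 had at least 100 counts in aged-SP replicates 1 and 4 and in young-SP replicate 1 and at most 3 in young-SP replicates 2 and 4, limits that were set after the counts of Sprr2b were seen. The others were Lpo (lactoperoxidase), Kap (kidney androgen regulated protein), Clca3b (a member of the chloride channel accessory family) and Trim12a. Clca3b was counted 610 and 321 times in aged-SP replicates 1 and 4, 491 times in young-SP replicate 1 and 0 times in young-SP replicates 2 and 4, so that young-SP replicate 1 did not exceed the aged-SP libraries as it did for Sprr2b. Trim12a was counted 563, 585 and 330 times in the first 3 of these libraries, Lpo 242, 289 and 268 times and Kap 118, 560 and 120 times. Among these 5 genes Sprr2b was the only one in which young-SP replicate 1 held the most counts. How few such genes there were depends on the limits, as Prss28 fell outside them with 6 and 4 counts in young-SP replicates 2 and 4.

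The genes most like the family were taken by Pearson's r with the mean log2 CPM of the 5 tested members over the 5 libraries, among 11001 genes with a symbol and a mean of at least 10 CPM. They were Epsti1 (r = 0.9997), Ddx60 (r = 0.999), Acer3 (r = 0.996), Parp10 (r = 0.996) and Sdc1 (r = 0.995). Epsti1 was at 32.2 and 39.0 CPM in aged-SP replicates 1 and 4 and at 56.7, 11.6 and 17.0 CPM in young-SP replicates 1, 2 and 4. Its order of libraries was that of the members' mean, from young-SP replicate 2 at the bottom to young-SP replicate 1 at the top, over a range of 2.27 on the log2 scale. Sdc1, which encodes the epithelial proteoglycan syndecan 1, ranged over 0.54 on that scale. With 5 libraries that share their depth and tissue, such values describe an order and carry no test.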

How the data were processed

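Uterine RNA of 2 aged-SP and 3 young-SP libraries was measured by RNA-seq (TRIzol, NEBNext Ultra kit, which does not mark strand). Per the submitters' processing notes, HISAT2 2.1.0, Bowtie2 2.2.3 and HTSeq 0.6.0 were used, and the table's positions are those of GRCm38. The authors deposited raw counts per gene, with no normalization. The authors also deposited FPKM, which on checking equalled each count over the length of its gene and the library total, and which served here to compare members. The mean, fold change, p-value and adjusted p-value columns of the authors' DESeq2 comparison were not used. 0 columns of values per sample were left unused, and groups came from the labels.

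Genes were kept by filterByExpr, scaled by TMM and compared with edgeR 4.0.16 (glmQLFit and glmQLFTest, two-sided, all genes, Benjamini-Hochberg adjustment) in R 4.3.3. SE is the absolute log2 fold change over the square root of F. The labels do not say that libraries are separate animals, so that adjusted p values measure the spread between libraries. DESeq2 1.42.0 and limma 3.58.1 (voom) were alternatives, as were other scalings and filters, a replicate block, each library left out and the Sprr2a copies summed. DESeq2 without its rule for outlying counts was added after the data were seen. The scripts were tested on simulated counts. These had less spread between libraries than the members, so recovery of changes in such genes was not tested. Floors were 3 counts in a library. Depth was 15071914 to 16728601 counts per library.

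Members and gene lists were chosen with earlier results of these data known. The text names all members, other Sprr rows, genes of the lists (cornified envelope partners, epithelial regulators, estrogen and progesterone genes, luminal epithelium, glands, stroma, myometrium, squamous epithelium, neutrophils, ovary and oviduct), neighbours with a mean of at least 10 counts and the 5 most alike genes. Sprr2h, Sprr2k, Sprr3, Sprr4, Sprr2j-ps, Cnfn and Grhl3 were not analysed here. Sequences were read with Python 3.11.15 and aligned with Biopython 1.88 from GENCODE M21 (GRCm38) and RefSeq (GRCm38.p6).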

Additional observations from a re-analysis of the deposited data

How the results depend on the processing

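With 2 and 3 libraries, and members that spanned over 13.4-fold within the young-SP group, moderate differences between the groups were not detectable. Of 62 values of the 5 tested members under the alternatives, 50 kept their direction and their side of the thresholds and 11 turned direction. Past the thresholds were 2 values, those of Sprr1a and (among the 11) Sprr2b without young-SP replicate 1. Limma-voom, which averages on the log scale, gave 0.47 for Sprr2g, 5.77 for Sprr2b and 0.086 for Sprr2f in place of -0.34, -1.14 and -0.44 (log2). The replicate block gave 0.57 for Sprr2b and -0.36 for Sprr2a3. It called 0 members, 0 genes of the lists and 2 genes in all against 25, and since only replicates 1 and 4 are shared by the groups (2 pairs, deviations correlated at 0.15 and 0.14) the numbers were not taken as a pairing. With each library left out, the log2 fold change ranged from -1.58 to 1.16 for Sprr2f, -0.84 to 1.29 for Sprr2g, -1.73 to 12.07 for Sprr2b (a fit against counts of 0, and no bound), -1.78 to 2.13 for Sprr2a3 and 0.84 to 4.87 for Sprr1a (its upper value against 0 and 1 counts, and no bound). For Sprr2f the value without aged-SP replicate 1 was 0.19. For Sprr2a3, leaving out young-SP replicate 2 gave -0.12, and the lowest value was that without aged-SP replicate 4. The number of members called ranged from 0 to 2 (2 without young-SP replicate 1), of list genes from 0 to 16 and of all genes from 1 to 578 (1 without aged-SP replicate 1, 49 without aged-SP replicate 4, and 578, 3 or 2 when young-SP 1, 2 or 4 was dropped). Where an aged-SP library was left out, the lone aged-SP library is assumed to vary like the young-SP ones. DESeq2's Wald test called 632 genes in all and 11 of the lists, and the fit without a filter 203 and 4. Limma-voom called 2 genes of the lists. The causes were not tested. The log2 ratio of the summed Sprr2 level was -0.59, and between -1.32 and 1.49 with a library left out. It was -0.39 relative to luminal epithelium and -0.97 without Sprr2f. Summing the Sprr2a copies gave 0.45 against 0.43 for Sprr2a3. With at least 10 counts in every library, Sprr2f and Sprr2g were the members left.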
